A study of Mus musculus with 96 samples.

Results

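The genes described here are the cytosolic ribosomal protein genes, the rows of the deposited table whose symbol is Rpl, Rps or Rplp followed by a number and at most a short suffix. The naming pattern found 82 of the 23481 rows, with 48 named for the large subunit, 31 for the small subunit and 3 for the P stalk (Rplp0, Rplp1 and Rplp2). Pseudogene rows are outside the pattern, and so are a few ribosomal proteins with other names, which are described separately. Of the 82 genes, 79 passed the filter on low counts and were tested. The other 3 were Rpl10l with 0 counts, Rpl3l with 1 count and Rpl39l with 8 counts over all 96 libraries.

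The cells were macrophages grown from the bone marrow of male C57BL/6 wild-type mice, aged 8 weeks, with conditioned medium that contains MCSF. A small molecule was added 30 min before lipopolysaccharide (LPS), a component of bacterial outer membranes that activates macrophages, and the cells were lysed 4 h after LPS. The 12 groups were NoStim, without LPS and with no stated vehicle, DMSO with LPS, and 10 compounds each with LPS. The compounds are labelled Halofuginone, Torin, Tunicamycin, BrefA, tBHQ, Caspase-1, ZVAD, pGE2, Dexa and Baflo. Each group had 8 wells, 4 on each of 2 plates. NoStim filled rows A to D and the other groups rows E to H, so the LPS comparison cannot be told apart from well position. Doses are not given in the labels, the compound names are kept as written there, and no compound was given without LPS. Whether the wells hold separate cultures is not stated, so the p-values measure the spread between these wells, which may be technical. Each library counts transcript 3′ ends in a bulk lysate, in which fewer cells of a type and less RNA per cell cannot be told apart.

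Ribosomal proteins form the ribosome together with ribosomal RNA. They accumulate in matched amounts, since an unassembled ribosomal protein is degraded. Their mRNAs are short and abundant, and most begin at the cap with a C followed by a run of pyrimidines, the 5′ terminal oligopyrimidine (TOP) motif, through which the kinase mTOR controls their translation. Torin is the name of mTOR kinase inhibitors, and halofuginone inhibits prolyl-tRNA synthetase, which loads proline onto its tRNA and whose inhibition activates the amino acid stress response. Rn45s is the row for the precursor of ribosomal RNA, which is not a ribosomal protein gene but takes a large share of these counts.

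The TOP motif is visible in the genome at the annotated starts. RefSeq (GRCm38.p6) gave a start window for 62 of the 82 genes. At the start itself, a C followed by 4 or more pyrimidines (C or T, read on the sense strand) stood in 13 of the 62 genes (21%), against 3.01% of all 27025 genes with a window. Allowing the run to begin anywhere from 5 bases before to 15 bases after the start gave 56.5% against 27.7%. In the full windows of 300 bases, CCGGAA was found on either strand in 54.8% of the genes against 16.7% of all genes, and GCCATNTT in 21% against 6.96%. These matches are letters in a window, and a gene without a match may start elsewhere than annotated. The windows below run from 10 bases before the start through the first 20 bases, with the pyrimidine run in capitals where it begins at the start. They are shown for genes that span the range of changes described below, first 6 with the run and then 3 without it.
Rps15a: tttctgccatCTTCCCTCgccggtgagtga
Rpl15: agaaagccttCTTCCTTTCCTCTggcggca
Rps10: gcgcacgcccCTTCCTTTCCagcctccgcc
Rps18: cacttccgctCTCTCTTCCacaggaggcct
Rpl38: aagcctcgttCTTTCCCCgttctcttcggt
Rps6: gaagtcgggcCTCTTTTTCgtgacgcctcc
Rpl12: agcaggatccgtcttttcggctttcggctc
Rpl22l1: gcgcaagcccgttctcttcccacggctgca
Rpl4: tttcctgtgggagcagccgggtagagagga

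In GRCm38.p6 these windows lie at chr7:118116128-118116157 on the minus strand for Rps15a, chr14:18270967-18270996 on the minus strand for Rpl15 and chr17:27635225-27635254 on the minus strand for Rps10. The windows of Rps18 and Rpl38 are chr17:33955646-33955675 on the minus strand and chr11:114668570-114668599 on the plus strand, and that of Rps6 is chr4:86857348-86857377 on the minus strand. Those of Rpl12, Rpl22l1 and Rpl4 are chr2:32961702-32961731, chr3:28805498-28805527 and chr9:64173377-64173406, all on the plus strand.

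Halofuginone libraries stood apart before any test. Their total counts without the rows Rn45s and Lars2 were 38719 to 61327, against at least 108146 in each of the other 88 libraries. Rn45s took 39.0% to 49.1% of all counts in Halofuginone and at most 30.9% elsewhere, so the groups did not overlap in this share. Total counts over all 96 libraries ran from 80196 to 379198. Macrophage markers were present in each library, with 12 of 13 markers in the table and a summed level of 3694 to 5389 CPM (a gene's counts scaled to a fixed total per library) in DMSO and 1970 to 2397 CPM in Halofuginone. The total behind these marker CPM includes Rn45s, whose larger share in Halofuginone lowers the value of every other gene there. The marker ranges of DMSO and Halofuginone are therefore not on a like scale. Summed markers reached at most 24.0 CPM for neutrophils, 28.2 CPM for T cells, 6.90 CPM for B cells, 68.2 CPM for fibroblasts, 62.0 CPM for dendritic cells and 3.16 CPM for erythroid cells. One library, Tunicamycin plate 2 well F, correlated with the other plate's wells of its own group at r = -0.041 over 2777 genes, where the median library reached 0.584. Its closest group was NoStim, at r = 0.340. The next lowest library was Tunicamycin plate 1 well H, at r = 0.211. All Tunicamycin wells but plate 1 well E were closer to another group than to their own.

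The tested ribosomal protein genes together took a similar share of counts in most groups and a smaller one under Halofuginone. As a percentage of counts without Rn45s and Lars2, their share in the 8 DMSO wells was 5.02% at the lowest, 5.48% at the median and 6.51% at the highest. In Halofuginone it was 2.03%, 2.45% and 3.10%, and in NoStim 5.65%, 7.86% and 9.20%. All 8 Halofuginone wells lay below the lowest well of any other group, which was 4.74%, and their median was 0.448 of the DMSO median. The tBHQ wells held 5.41%, 7.74% and 8.64% and the Torin wells 5.80%, 6.64% and 7.83%, ranges that overlap with DMSO. Caspase-1 wells (5.50%, 6.53% and 7.70%), Tunicamycin wells (5.62%, 6.55% and 8.46%) and pGE2 wells (5.50%, 6.41% and 7.27%) also overlapped with DMSO. The medians of Baflo, BrefA, ZVAD and Dexa lay between 5.61% and 6.14%. In 12 of 12 groups the mean share was higher on plate 1 and the mean Rn45s share lower there.

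**Figure D1:**
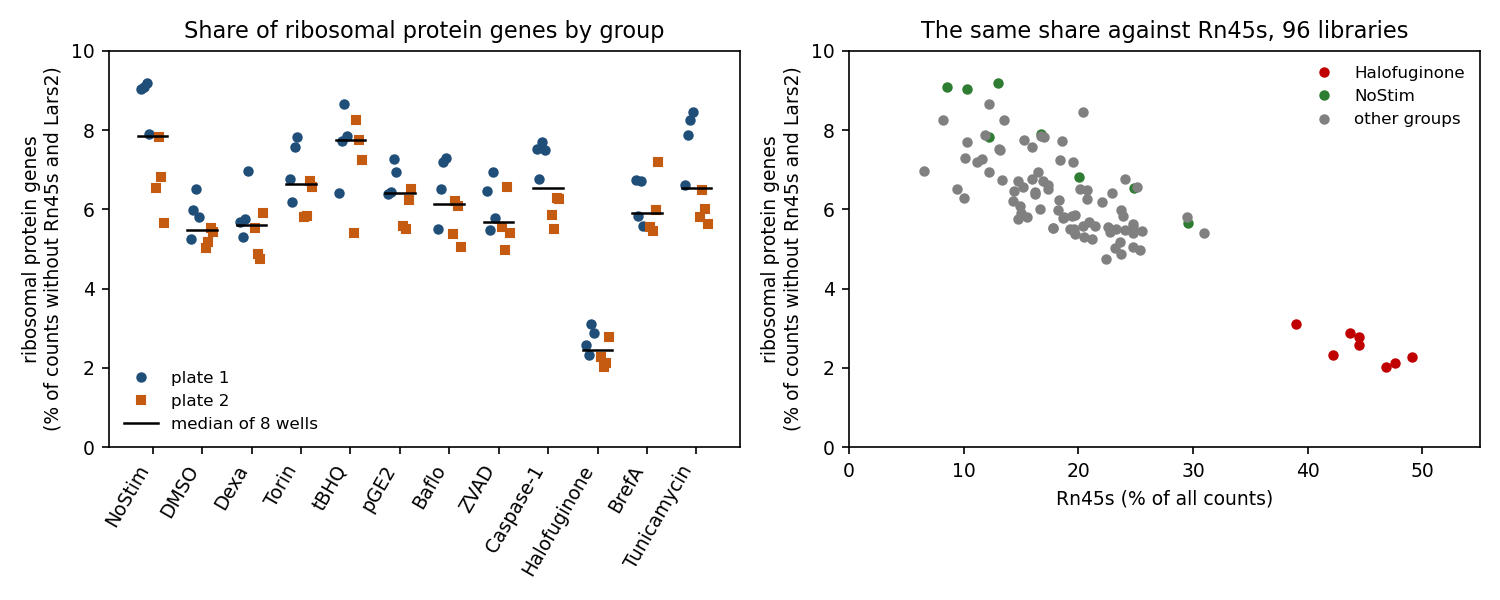
Left, the share of ribosomal protein genes in each of 96 libraries (y axis, percent of counts without Rn45s and Lars2) by group (x axis), with plates marked and the median of 8 wells as a bar. Right, the same share against the Rn45s percentage of all counts. The Halofuginone wells lie at 2.03% to 3.10%, below all other wells, and above all other wells in Rn45s.

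Levels of single genes were spread widely. Averaged over the libraries, the 79 tested genes ranged from 40.2 normalised CPM for Rpl22l1 to 2267 for Rps29, with a median of 585. The values are not divided by transcript length and come from 3′ ends, so they do not order the genes by abundance. Near-identical pseudogene copies are common in this family, and reads of a gene and its copy may be split between rows.

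Under Halofuginone nearly the whole set fell. Against DMSO, 75 of 79 tested genes fell and 0 rose, beside 23.3% of all 4963 tested genes that fell and 17% that rose (edgeR quasi-likelihood test, Benjamini-Hochberg adjusted p below 0.05). All 79 estimates were below 0, with a median log2 fold change of -1.32, which is 2.49 times lower, where the median over all tested genes was -0.14. Of the large subunit genes 42 of 45 fell with a median of -1.28, of the small subunit genes 30 of 31 with a median of -1.34, and of the P stalk genes 3 of 3 with a median of -0.96. For 63 of the 79 genes all 8 Halofuginone wells lay below all 8 DMSO wells, which held for 6.99% of all tested genes. On plate 1 alone 74 genes fell, beside 741 of all 5118 genes, and on plate 2 alone 75, beside 780 of 4886.

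The strongest decreases were in genes of both subunits. Rps15a, a protein of the small subunit, had 18.7, 56.5 and 92.6 normalised CPM (lowest, median and highest well) in Halofuginone and 182, 225 and 285 in DMSO. The groups did not overlap, and the log2 fold change was -2.0 (SE 0.24, edgeR adjusted p = 1.72e-12). In raw counts this is 1 to 6 in a Halofuginone well, and the 6 pseudogene rows of the family, which include Rps15a-ps4 and Rps15a-ps6, also fell, so reads shared between the copies are uncertain. Rpl37a, a zinc-binding protein of the large subunit, had 120, 232 and 365 normalised CPM in Halofuginone and 756, 893 and 1158 in DMSO. Its wells were also separate, with a log2 fold change of -1.95 (SE 0.15, edgeR adjusted p = 3.41e-24). Rpl15, a large subunit protein whose start holds the longest pyrimidine run shown above, had 92.6, 129 and 186 against 407, 509 and 596 normalised CPM. It fell by 1.79 on the log2 scale (SE 0.17) with no overlap between the groups. Rpl41, the smallest ribosomal protein, had 225, 395 and 550 against 984, 1291 and 1545 normalised CPM and fell by 1.75 (SE 0.13), again with separate wells. Rps27l, a paralogue of Rps27, had 0, 34.5 and 131 against 98.4, 158 and 190 normalised CPM and fell by 1.82 (SE 0.31). Its highest Halofuginone well overlapped with the DMSO wells.

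At the other end of the set the changes were small. Among the genes that fell, the smallest log2 fold changes included -0.66 for Rpl39, -0.70 for Rps27a, which is made as a fusion with ubiquitin, -0.76 for Rpl5, which carries 5S ribosomal RNA with Rpl11, and -0.78 for Rps25. Rpl39 had 175, 356 and 1039 normalised CPM in Halofuginone and 606, 752 and 979 in DMSO, so a single Halofuginone well lay above all DMSO wells. The 4 genes that did not pass were named because of their values. Rpl4, a large subunit protein, had 292, 494 and 857 against 501, 591 and 709 normalised CPM, a log2 fold change of -0.10 (SE 0.13, edgeR adjusted p = 0.549). The Halofuginone wells spread on both sides of the DMSO wells. Rps15 changed by -0.36 (SE 0.20, edgeR adjusted p = 0.142), Rpl7l1 by -0.37 (SE 0.28, edgeR adjusted p = 0.297) and Rpl22l1 by -1.24 (SE 0.57, edgeR adjusted p = 0.0711). Rpl22l1 had 6 counts in all 8 Halofuginone wells together, so its change could not be measured closely at this depth. The windows with a pyrimidine run at the start (13 genes) had a median of -1.41 and those without (46 tested genes) a median of -1.30.

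**Figure D2:**
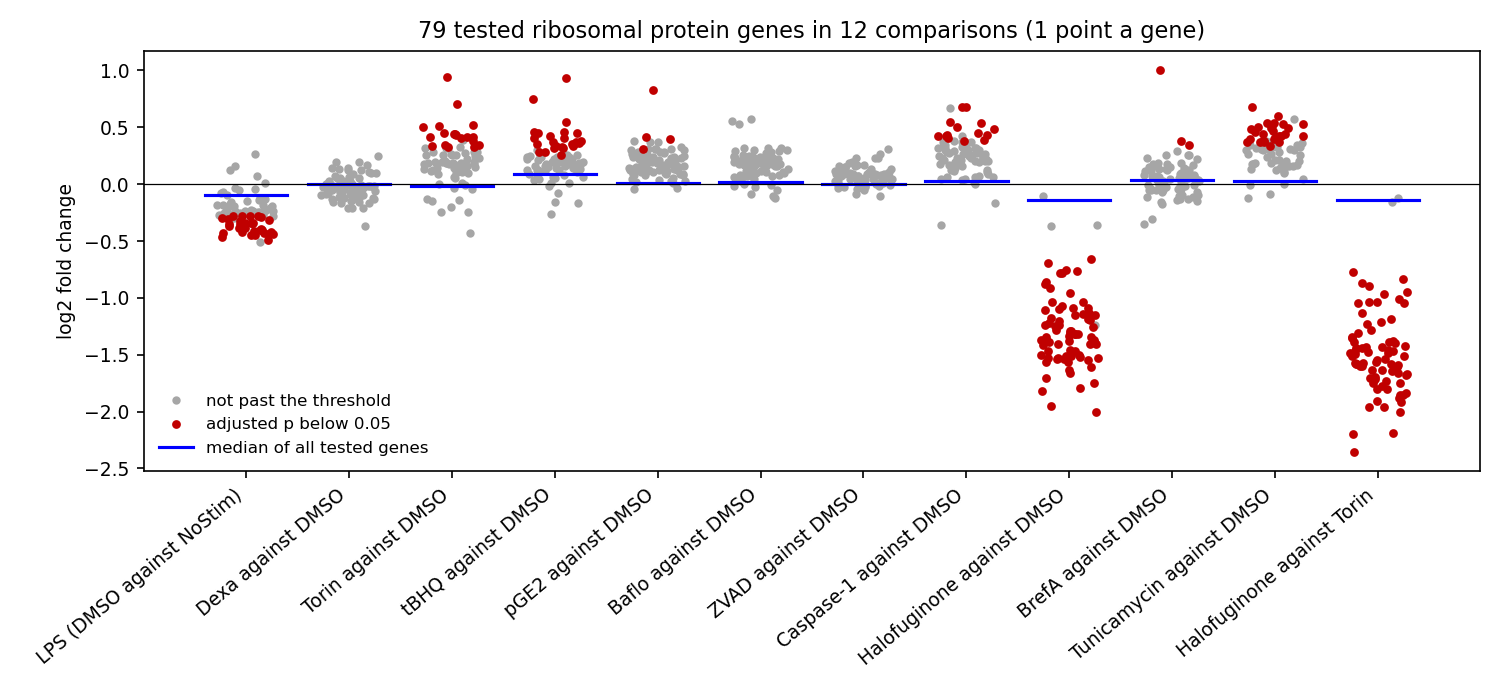
Log2 fold changes (y axis) of the 79 tested ribosomal protein genes in each of 12 comparisons (x axis), 1 point a gene, red where the edgeR adjusted p is below 0.05, with the median of all 4963 tested genes as a blue line. The Halofuginone points lie between -2.0 and -0.10 against DMSO, and all but a few lie below the points of the other compounds. The compounds share the DMSO wells.

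At a common depth the count was as large. With each library thinned to 38719 counts, 77 of the genes could be tested and 75 fell with a median of -1.24, beside 34.6% of the genes tested at that depth. With the Rn45s share of each library as a covariate, 72 fell with a median of -0.87, beside 14.2% of all genes. This fit takes the relation with Rn45s share from wells within groups, Halofuginone included. It extends that relation over a range in which the Halofuginone wells do not overlap with the others. The part of the share and the part of the compound therefore cannot be told apart in full. With same-named wells of both plates summed, 75 fell, beside 16.3%. Under RLE scaling and in DESeq2, 75 fell as well.

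Transcript length moved with the change. The ribosomal protein genes are short, with a median of 771 nt (345 to 5130) and 62 of 79 under 1000 nt, against a median of 2820 nt for the other tested genes. Among other genes, those under 1000 nt (397 genes) had a median log2 fold change of -0.96 under Halofuginone, and 52.9% of them fell. Those of 1000 to 3000 nt had a median of -0.26 and those of 3000 nt or more a median of 0.18. Within the set, the 62 shorter genes had a median of -1.34, with 60 that fell, and the 17 genes of 1000 nt or more a median of -1.19, with 15 that fell. The other genes at or above the median level of the set (152 genes) had a median of -0.33, and 50.7% of them fell.

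A fit that removed each library's own trend of level on length, learned on other genes and chosen after seeing the data, left a smaller decrease. In that fit 52 ribosomal protein genes fell and 3 rose, beside 14.8% of all genes that fell and 19% that rose, and the median log2 fold change was -0.46. Rpl15 (-1.01, SE 0.14), Rpl37a (-0.93, SE 0.11), Rps27l (-0.78, SE 0.29) and Rpl41 (-0.69, SE 0.11) remained lower in it. The value of Rps15a in that fit was -2.08 (SE 0.26), but it rests on an annotated median transcript of 5130 nt, which may not be the transcript expressed in these cells. The 3 that rose were Rps15 (0.70), Rplp1 (0.32) and Rpl4 (0.32), and these were named because of their values. Rps25, Rps27a and Rpl39 changed sign in that fit without passing the threshold. The 52 genes that fell also fell as reported, with the Rn45s share as covariate and at the common depth.

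**Figure D3:**
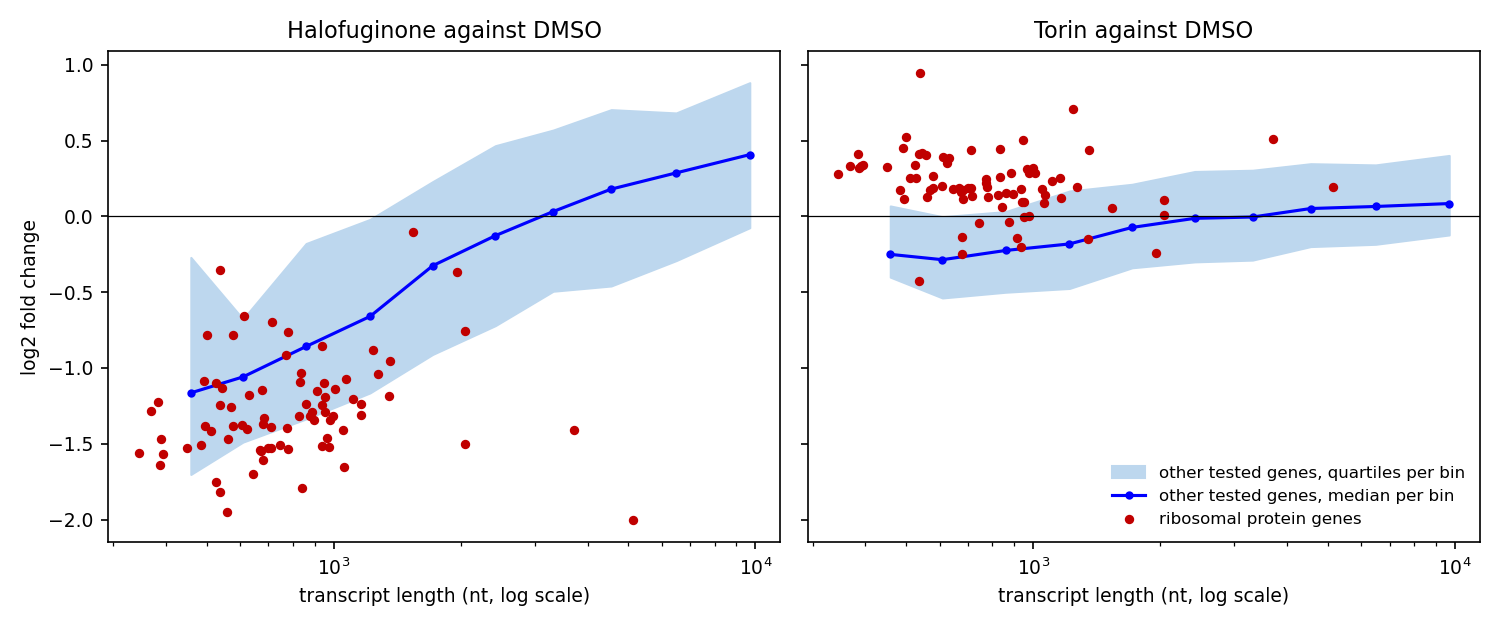
Log2 fold change (y axis) against annotated transcript length (x axis, log scale) for Halofuginone (left) and Torin (right), each against DMSO. Red points are the 79 ribosomal protein genes, the blue line and band are the median and quartiles of other tested genes per length bin. Other short genes are also low under Halofuginone, while most ribosomal protein genes lie above the median of like length under Torin.

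The same decrease was found against Torin, which does not use the DMSO wells. In Halofuginone against Torin 77 of 79 genes fell and 0 rose, beside 21.3% of all genes that fell and 14.6% that rose, with a median of -1.51. Rpl37a fell by 2.35 (SE 0.15), from 964, 1152 and 1488 normalised CPM in Torin, and the wells did not overlap. Rps15a, Rpl22l1, Rpl41 and Rpl32 followed with -2.20, -2.19, -2.0 and -1.96. Rps15, Rps27a and Rpl5 were among the genes that fell least, with -0.77, -0.83 and -0.87, and Rpl4 (-0.16, edgeR adjusted p = 0.344) and Rpl7l1 (-0.13, edgeR adjusted p = 0.783) did not pass. With the Rn45s share as covariate 76 fell, beside 13.8% of all genes, and with the length trend removed 71 fell with a median of -0.85, beside 15.8%. Over those fits and the thinned one, 70 genes fell in each. The comparisons of Halofuginone with DMSO and with Torin share the Halofuginone wells.

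Part of the set was a little lower in DMSO with LPS than in NoStim, a comparison that cannot be told apart from well position. In DMSO against NoStim 33 of 79 genes fell and 0 rose, beside 18.9% of all tested genes that fell and 17.9% that rose. The median log2 fold change was -0.27, against -0.09 over all genes, and 74 of 79 estimates were below 0. All 3 P stalk genes fell, with a median of -0.43, beside 15 of 45 large subunit and 15 of 31 small subunit genes. Rplp1, an acidic stalk protein that helps recruit elongation factors, had 705, 841 and 934 normalised CPM in DMSO and 955, 1114 and 1486 in NoStim. The groups did not overlap, which held for 1 gene of the set and for 4.37% of all tested genes, and it fell by 0.49 (SE 0.10, edgeR adjusted p = 4.04e-05). Rps7 had 411, 500 and 566 in DMSO against 460, 733 and 867 in NoStim and fell by 0.46 (SE 0.12, edgeR adjusted p = 0.00133), with overlapping wells. Rpl37 fell by 0.45, Rpl12 by 0.44 and Rps27l by 0.44. The smallest decreases among the genes that fell were -0.28, for Rps24, Rps14, Rps16 and Rpl21, and -0.29 for Rps23.

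The LPS count depended on the treatment of the counts. With the Rn45s share as covariate 17 fell and 1 rose (median -0.17), beside 18.1% of all genes that fell. With the length trend removed 7 fell and 1 rose (median -0.07), beside 19.7%, and other genes under 1000 nt had a median of -0.30 in the comparison as reported. With same-named wells summed 3 fell and 1 rose, beside 12.1%, while under RLE scaling 59 fell, beside 25.1%, with a median of -0.37 where all genes had -0.19. On plate 1 alone 30 fell (median -0.37), beside 736 of all 5118 genes. On plate 2 alone 0 fell and 1 rose (median -0.11), beside 331 lower and 551 higher of all 4886 genes. Rpl11, Rpl12, Rplp0, Rplp1 and Rps7 fell as reported, with the covariate, at the common depth and with the length trend removed.

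Torin raised a part of the set. Against DMSO, 19 of 79 genes rose and 0 fell, beside 9.75% of all genes that rose and 6.81% that fell, with a median log2 fold change of 0.19 against -0.01 over all genes. By subunit, 10 large subunit, 7 small subunit and 2 P stalk genes rose. Rpl12, which forms the base of the stalk, had 604, 740 and 814 normalised CPM in Torin and 340, 407 and 566 in DMSO. All 8 Torin wells were above all 8 DMSO wells, and the gene rose by 0.71 (SE 0.13, edgeR adjusted p = 4.42e-06). Rplp1 had 1053, 1162 and 1409 against 705, 841 and 934 normalised CPM, also without overlap, and rose by 0.52 (SE 0.11, edgeR adjusted p = 4.99e-05). Rpl22l1 rose by 0.94 (SE 0.29) on few counts. Rps20 rose by 0.51 and Rpl35 by 0.50, both with overlapping wells. Rplp0, the stalk protein that anchors Rplp1 and Rplp2, rose by 0.44 (SE 0.12). The smallest increases among the genes that rose were 0.33 for Rps29 and Rpl38, 0.34 for Rps24 and Rps21 and 0.35 for Rpl34. Rpl3 (-0.15) and Rps6 (-0.04), an mTOR pathway substrate as a protein, did not pass.

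Under Torin, short genes of other kinds went the other way. The 397 other genes under 1000 nt had a median of -0.24, where the ribosomal protein genes had 0.19. Once the length trend was removed 62 rose with a median of 0.42, beside 11.5% of all genes, and with the Rn45s share as covariate 37 rose with a median of 0.26, beside 11%. All 19 genes stayed called in both fits. With same-named wells summed 12 rose, beside 6.84%. At the common depth 5 of 77 rose, beside 115 of all 1413 genes tested there. On each plate alone 2 of 79 rose, with medians of 0.19 and 0.18. Of all genes, 267 of 5118 rose on plate 1 and 220 of 4886 on plate 2. Rpl12, Rpl32, Rpl37a, Rps12 and Rps18 rose as reported and in the covariate, thinned and length fits.

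Under each of tBHQ, Tunicamycin and Caspase-1 a part of the set passed as higher, in numbers that moved with the fit. Under tBHQ 25 genes rose and 0 fell, beside 19.7% of all genes that rose and 17.9% that fell, with a median of 0.21 against 0.09 over all genes. Rps2 had 494, 783 and 1013 normalised CPM against 459, 564 and 648 in DMSO, with overlapping wells, and rose by 0.46 (SE 0.12, edgeR adjusted p = 0.00128). Rpl22l1 rose by 0.93, Rps27l by 0.55 and Rplp2 by 0.46. Other genes under 1000 nt had a median of 0.39 under tBHQ, higher than that of the set. After removal of the length trend 4 ribosomal protein genes rose and 6 fell, beside 19.5% of all genes that rose and 16.2% that fell, and the median was -0.05. With same-named wells summed 4 rose and 1 fell, beside 12.4% that rose. On plate 1 alone 2 rose, beside 543 of all 5118 genes, and on plate 2 alone 9 rose, beside 503 of 4886. Rpl12 and Rps2 were among the genes that rose in the fits as reported, with the covariate, thinned and with the length trend removed.

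Under Tunicamycin, a name for inhibitors of protein N-glycosylation in the endoplasmic reticulum, 29 genes rose and 0 fell, beside 3.41% of all genes that rose and 1.37% that fell. The median was 0.33 against 0.03 over all genes, and 15 of 31 small subunit, 11 of 45 large subunit and 3 of 3 P stalk genes rose. Rps27l had 152, 205 and 416 normalised CPM against 98.4, 158 and 190 in DMSO and rose by 0.67 (SE 0.17, edgeR adjusted p = 0.00734). Its wells overlapped. Rpl9 rose by 0.60, Rps7 and Rps18 by 0.54 each and Rpl32 by 0.53. The increase rested on plate 1, where 28 rose and 1 fell (median 0.43), beside 173 higher and 183 lower of all 5118 genes. On plate 2 alone 0 passed (median 0.15, with 8 genes at an unadjusted p below 0.05 in edgeR). Of all 4886 genes tested on plate 2, 4 rose and 1 fell. The difference between the plates was not tested. Without plate 2 well F, the well with the lowest r to its own group, 24 rose, beside 3.13% of all genes. Plate 1 well H, with the next lowest r (0.211), held the highest share of the set in this group, 8.46%. No fit left that well out. The other genes under 1000 nt had a median of 0.18 under Tunicamycin. With the length trend removed 13 rose with a median of 0.19, beside 2.52%, and with same-named wells summed 10 rose, beside 1.22%. Rpl12, Rpl32, Rps12 and Rps18 rose in all of the fits as reported, with covariate, thinned and with the length trend removed.

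Under the label Caspase-1, 14 genes rose and 0 fell, beside 1.59% of all genes that rose and 1.47% that fell, with a median of 0.27 against 0.02 over all genes. Rpl5 had 716, 854 and 1351 normalised CPM against 474, 576 and 692 in DMSO. All 8 wells lay above all 8 DMSO wells, and Rpl5 rose by 0.68 (SE 0.12, edgeR adjusted p = 0.000232). Rps27l rose by 0.68, Rpl32 by 0.54 and Rps15a by 0.50. The other genes under 1000 nt had a median of 0.23 under Caspase-1, close to that of the set. With the Rn45s share as covariate 4 rose and 1 fell (median 0.15), beside 0.524% of all genes that rose. With the length trend removed 3 rose and 1 fell (median 0.06), beside 0.967% that rose. With same-named wells summed 5 rose, beside 0.417%. On plate 1 alone 10 rose and 1 fell, beside 72 higher and 128 lower of all 5118 genes. On plate 2 alone 1 rose, beside 1 of all 4886 genes. Rpl5 was the 1 gene that rose as reported and in the covariate, thinned and length fits.

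Few of these genes passed under the other compounds. Under pGE2 4 rose and 0 fell, beside 5.26% of all genes that rose and 5.74% that fell, and the 4 were Rpl22l1 (0.83), Rpl37 (0.42), Rps2 (0.40) and Rpl23 (0.31). The pGE2 median was 0.17 against 0.01 over all genes, near the 0.19 of Torin. Of its 79 estimates 77 were above 0, and 23 genes had an unadjusted p below 0.05 in edgeR. Under BrefA 3 rose and 0 fell, beside 8.7% that rose and 8.22% that fell, and Rpl22l1 (1.01) and Rplp0 (0.35) were among the 3. Under Dexa 0 rose and 0 fell in edgeR and in DESeq2, beside 1.93% and 1.61% of all genes, with 1 gene at an unadjusted p below 0.05. Under Baflo 0 passed in either direction in edgeR and DESeq2, beside 0% of all genes higher and 0% lower, with 18 genes of the set at an unadjusted p below 0.05 and a median of 0.18. Under ZVAD 0 passed in both tools, beside 0% and 0%, with 1 gene at an unadjusted p below 0.05. Rplp0 was called most often, in 7 of the 12 comparisons, and Rpl11, Rpl12, Rpl32, Rpl36, Rpl37, Rplp1, Rps12, Rps18, Rps2, Rps20 and Rps27l in 6 each. Comparisons with DMSO share the same 8 control wells, and so does the LPS comparison, in which DMSO is the first group. The median share of the set in the DMSO wells, 5.48%, was the lowest outside Halofuginone.

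**Figure D4:**
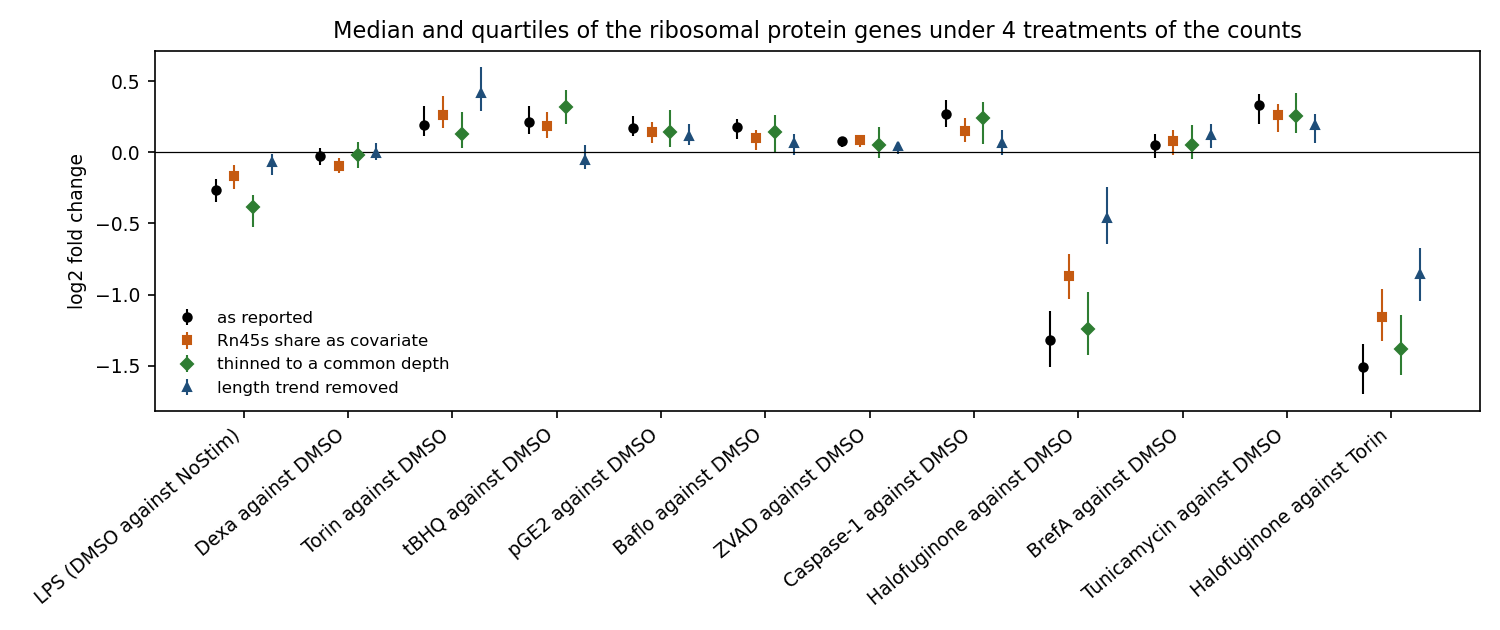
Median and quartiles (points and bars) of the log2 fold changes (y axis) of the tested ribosomal protein genes in 12 comparisons (x axis), as reported and in 3 other fits. Under Halofuginone the medians are -1.32, -0.87, -1.24 and -0.46, and under Torin the median is highest, at 0.42, with the length trend removed.

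The paralogues were followed as ratios within a library, which do not depend on the scaling between libraries. At low counts the value added to each count moves the ratio, so depth still bears on it. Rpl22l1 replaces Rpl22, an RNA-binding protein of the large subunit, in part of the ribosomes, and Rps27l is a p53 target gene that encodes a near copy of Rps27. The ratio was log2 of the counts with 0.5 added, and 24 exact two-sided permutation tests over wells were made after seeing the data, with Benjamini-Hochberg adjustment. Wells of both plates were permuted together, so these tests take no account of plate. The mean Rpl22l1 to Rpl22 ratio was -3.87 ± 0.78 (SD, n = 8) in DMSO and -2.79 ± 0.55 (SD, n = 8) in Torin, a difference of 1.08 (exact permutation adjusted p = 0.0367), with 1.08 on plate 1 and 1.07 on plate 2. It was higher than in DMSO by 1.02 under pGE2 (exact permutation adjusted p = 0.0364), with 0.69 and 1.34 on plates 1 and 2, and by 1.15 under BrefA (exact permutation adjusted p = 0.0367), with 1.12 and 1.18. Under tBHQ the difference was 0.90 (exact permutation adjusted p = 0.0725), which did not pass. Rpl22l1 had 58 counts over the 8 DMSO wells and 91 over the Torin wells, so each well rests on few counts. The DMSO mean was the lowest of the 12 groups, and all of these differences share it.

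The Rps27l to Rps27 ratio went the other way under Torin. It was -2.35 ± 0.32 (SD, n = 8) in DMSO and -3.04 ± 0.23 (SD, n = 8) in Torin, a difference of -0.69 (exact permutation p = 0.000311, adjusted p = 0.00746), with -0.75 on plate 1 and -0.63 on plate 2. Under tBHQ the ratio was higher than in DMSO by 0.47 (exact permutation adjusted p = 0.0364) and under Caspase-1 by 0.44 (exact permutation adjusted p = 0.0364). Both differences were larger on plate 2, at 0.27 and 0.66 on plates 1 and 2 for tBHQ and 0.13 and 0.75 for Caspase-1. On plate 2 the ratio also lay above DMSO by 0.68 under ZVAD, 0.61 under BrefA, 0.57 under Dexa and 0.54 under pGE2. The differences there were 0.53 under Tunicamycin and 0.49 under Baflo, and only Torin and Halofuginone lay below DMSO. DMSO differed from NoStim by -0.30 on plate 2, and all of these differences share its 4 DMSO wells. The level of Rps27l itself under Torin, 74.7, 109 and 129 normalised CPM against 98.4, 158 and 190 in DMSO, did not pass (-0.43, edgeR adjusted p = 0.113), nor did that of Rps27 (0.28, edgeR adjusted p = 0.114). In Halofuginone, with 6 counts of Rpl22l1 and 21 of Rps27l over 8 wells, neither ratio passed.

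**Figure D5:**
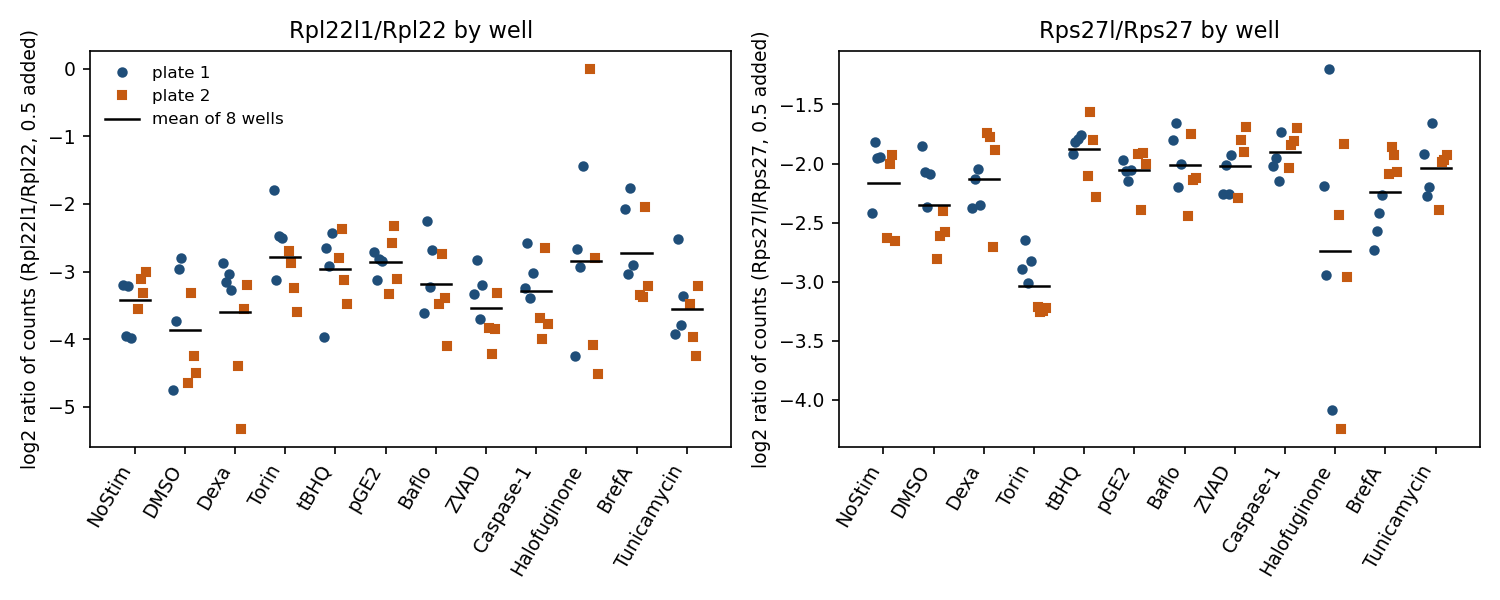
Log2 ratio of counts (y axis, 0.5 added to each) of Rpl22l1 to Rpl22 (left) and Rps27l to Rps27 (right) in each well by group (x axis), with plates marked and the mean of 8 wells as a bar. The Torin wells lie high on the left and low on the right, and the Halofuginone wells spread widely on few counts.

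Related genes were counted from lists beside the set, and the shares over all tested genes under Halofuginone were 23.3% lower and 17% higher. With the Rn45s share as covariate 14.2% of all genes were lower and 359 of 4963 higher. With the length trend removed 14.8% were lower and 19% higher. The 5 ribosome genes outside the naming pattern all fell under Halofuginone, among them Rpl36al (-1.74), Gnb2l1 (-0.99), the scaffold protein also known as RACK1, Fau (-0.98) and Rpsa (-0.91). After removal of the length trend 3 of the 5 fell and 1 rose. Mitochondrial ribosomal proteins, which build the ribosome of mitochondria, fell in 17 of 35 tested genes and rose in 0, with a median of -1.05. Mrpl27 (-3.48), Mrpl51 (-2.57) and Mrpl23 (-2.11) changed most. In the fit with the Rn45s share 7 fell and 0 rose, and with the length trend removed 5 fell and 2 rose (median -0.49). The 13 other TOP mRNAs, mostly translation factors, went both ways: 4 rose and 5 fell with a median of -0.27, among them Eif3h (-1.60), Eif3f (-1.59) and Hnrnpa1 (1.16). In the covariate fit 1 of them rose and 3 fell (median -0.08), and with the length trend removed 5 rose and 3 fell (median -0.15). Of 31 tested ribosome biogenesis genes 6 rose and 5 fell with a median of 0.10, and Polr1c (-3.13), Ddx18 (-2.01) and Rcl1 (-1.98) changed most. In the covariate fit 4 biogenesis genes rose and 3 fell, and the median was -0.14. With the length trend removed 5 biogenesis genes rose and 3 fell, and the median was 0.32.

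Under Torin, where 9.75% of all genes rose and 6.81% fell, 0 of 13 other TOP mRNAs passed in edgeR or DESeq2, with 1 at an unadjusted p below 0.05 and a median of 0.08. There 1 biogenesis gene rose and 2 fell, and 2 mitochondrial ribosomal protein genes fell and 0 rose (median -0.39, where the cytosolic set had 0.19). With the Rn45s share as covariate, and likewise with the length trend removed, 1 mitochondrial gene rose and 0 fell, and 4 biogenesis genes fell. Of all 4963 genes, 548 rose and 371 fell in the covariate fit, and 570 rose and 312 fell in the length fit. Under LPS, where 17.9% of all genes rose and 18.9% fell, 1 other TOP mRNA rose and 1 fell, 3 biogenesis genes rose and 1 fell (median 0.29), and 2 mitochondrial ribosomal protein genes rose and 7 fell (median -0.34). Rcl1 (2.47) and Wdr43 (1.27), both of ribosome biogenesis, rose most there, where the cytosolic ribosomal protein genes had their median of -0.27. Under BrefA, where 8.7% of all genes rose and 8.22% fell, 8 of 31 biogenesis genes rose and 0 fell, among them Gnl3 (1.60), Rrs1 (1.21) and Polr1c (0.96), beside the 3 of 79 ribosomal protein genes that rose.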

How the data were processed

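Per the labels, transcript 3′ ends were sequenced after a modified SCRB-Seq preparation. The authors deposited a table of unscaled counts per gene symbol for 96 libraries, from reads aligned with BWA to mm10, per the submitters' processing notes. Its version, the annotation used, filters and the handling of PCR copies are not given in the sources considered, so counts may hold several copies of a molecule. Groups and plates were taken from the labels. The genes, lists and tests were chosen with earlier results of these data known.

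Counts were tested with edgeR 4.0.16 in R 4.3.3: TMM scaling, filterByExpr on the groups, 1 model of 96 libraries with terms for group and plate, two-sided quasi-likelihood F tests (robust), and Benjamini-Hochberg adjustment over all 4963 tested genes of each of 12 comparisons, threshold 0.05. The steps recovered most of the largest changes put into simulated counts of the Halofuginone group. Changes as small as most of those in the other comparisons, a plate effect and a length trend were not put in. Normalised CPM are TMM-scaled. Alternatives were RLE scaling, TMM without the ribosomal protein genes, no filter, DESeq2 1.42.0, same-named wells summed, each plate alone, the replicate block, the Rn45s share as covariate, Rn45s and Lars2 left out, thinning to 38719 counts, leaving out Tunicamycin plate 2 well F and, added after seeing the data, removal of a length trend (lowess of log2 CPM on log2 length over genes with a mean of at least 30 CPM, as an offset). Lengths are medians over protein-coding transcripts of GENCODE M21 basic and were found for 4637 tested genes, all 79 ribosomal protein genes among them.

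Wells with the same plate and row in different groups deviated together only slightly (mean r 0.0466, above 0.1 in 126 of 440 pairs). For the same plate and another row the mean r was -0.0122, above 0.1 in 234 of 1672 pairs. The row letter was not used as a pairing in the main fit, and the replicate block is given as an alternative. Same-named wells of a group on both plates deviated together weakly (mean r 0.156, above 0 in 12 of 12 groups), so results with them summed are printed. Named genes were, in each comparison, all that passed where 8 or fewer did, otherwise the 5 highest and 5 lowest log2 fold changes, with the panel Rplp0, Rpl3, Rps6, Rpl22, Rpl22l1, Rps27 and Rps27l and those called most often. Genes named outside this rule are said to be so, and a few that the rule takes are not reported here. Start windows are RefSeq, GRCm38.p6.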

Additional observations from a re-analysis of the deposited data

Results flagged for a closer look

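In 10 of 192 checked groups of 8 wells, which cover genes named here and the share of the set, 1 well lay far from the other 7. Chance alone gives about 1 such group in 20. The values are normalised CPM. Rps29 was at 2978 in Dexa plate 1 well H (others 1590 to 2164) and at 1657 in tBHQ plate 2 well E (others 2381 to 2994). Rplp1 was at 1680 in Tunicamycin plate 1 well H (others 922 to 1202). Rps6 was at 707 in DMSO plate 1 well G (others 429 to 548), at 427 in Halofuginone plate 1 well G (others 112 to 241) and at 658 in BrefA plate 2 well H (others 466 to 547). Rps27 was at 986 in DMSO plate 1 well G (others 647 to 778) and at 1023 in Dexa plate 1 well H (others 583 to 755). In Halofuginone, Rpl22 was at 0 in plate 2 well E (others 124 to 204) and Rpl22l1 at 42.1 in plate 1 well H (others 0 to 16.4). The Halofuginone values rest on few counts, and Dexa plate 1 well H and DMSO plate 1 well G each appear for 2 genes.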

How the results depend on the processing

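The counts of ribosomal protein genes that passed under Halofuginone, against DMSO (75) and against Torin (77), stayed within 1.5 times under each alternative run, the replicate block and each plate alone included. The other counts moved. As reported, 33 passed for LPS, 19 for Torin, 25 for tBHQ, 4 for pGE2, 14 for Caspase-1, 3 for BrefA and 29 for Tunicamycin, in either direction. Without the filter on low counts these became 2, 9, 4, 2, 5, 1 and 13, and 1 gene passed for Baflo. With same-named wells summed they became 4, 12, 5, 0, 5, 1 and 10. RLE scaling gave 59 for LPS and 42 for tBHQ, and DESeq2 gave 60 for LPS, 43 for tBHQ and 29 for Caspase-1. TMM without the ribosomal protein genes gave 19 for Tunicamycin. On plate 1 alone Torin had 2, tBHQ 2, pGE2 1 and BrefA 0, and on plate 2 alone LPS had 1, Torin 2, tBHQ 9, pGE2 1, Caspase-1 1 and Tunicamycin 0. With the Rn45s share as covariate LPS had 18, Torin 37, Caspase-1 5 and BrefA 5. At the common depth Torin had 5, Caspase-1 4, BrefA 1 and Tunicamycin 5. With the length trend removed, an alternative chosen after seeing the data, LPS had 8, Torin 62, tBHQ 10, Caspase-1 4, BrefA 9 and Tunicamycin 13. The replicate block gave 7 for pGE2 and could not be fitted for LPS, whose groups share no row letter. It moved no other count by over 1.5 times. Fewer wells, fewer counts or more genes in the adjustment belong to the construction of the plate, thinned, summed and unfiltered fits. For the others the cause was not tested.

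Of 88 single gene results named in the comparisons, 6 changed sign, each with the length trend removed: Rpl41 (-0.089) and Rps29 (-0.14) under tBHQ, Rps25 (0.23), Rps27a (0.19) and Rpl39 (0.34) under Halofuginone, and Rps15 (0.014) in Halofuginone against Torin. Halofuginone libraries held 38719 to 61327 counts without Rn45s and Lars2, which limits Rpl22l1 and Rps27l most.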
